A study of Mus musculus with 8 samples.

Results

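The surface genes Thy1, Cd7, Cd5, Cd2, Cd8a, Cd4, Cd79b and Cd72, known best from lymphocytes, were followed in dendritic cell (DC) progenitors. They were taken by name, and are 8 of the 19938 genes that have a probe set assigned to exactly 1 gene by the platform annotation, and each of the 8 has 1 such probe set. They were picked with earlier results of the same 3 groups of arrays in view, so their levels and differences below are descriptions, with no p-value. The arrays came from 3 populations sorted from the bone marrow of mice heterozygous for a reporter that fuses green fluorescent protein to Zeb2, an allele that every group carries. Pre-CD8 DCs, which give rise to CD8a+ classical DCs (cDC1s), were on 2 arrays, Zeb2low common DC progenitors (CDPs) on 3 and Zeb2hi CDPs on 3. The labels state neither the sort markers, age and sex of the animals nor if the arrays of a group are independent preparations, so the spread between arrays may be technical. The RNA was amplified from very small amounts before hybridisation.

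Thy1 is a glycoprotein held in the membrane by a lipid anchor and covers mouse thymocytes and T cells. Cd7, Cd2 and Cd5 encode receptors of T cells that tune adhesion and antigen receptor signals. Cd4 and Cd8a encode the coreceptors for MHC class II and class I, and the CD8a chain also marks the cDC1 lineage of mouse spleen. Cd79b encodes a signalling chain of the B cell receptor, and Cd72 an inhibitory coreceptor of it. DC progenitors and lymphoid progenitors both arise from Flt3+ marrow cells, and several such surface genes are known to be transcribed in them outside T and B cells.

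RefSeq promoters (GRCm38.p6) matched 3 of the 8 genes. The 250 bases before the start of transcription are shown for Cd5 and Cd8a, whose windows held the motifs marked in capitals. The Cd5 window lies at chr19:10738975-10739224 on the minus strand and the Cd8a window at chr6:71373177-71373426 on the plus strand. Capitals in the Cd5 window mark CACCTG in either direction, the E-box that Zeb proteins are known to bind. Capitals in the Cd8a window mark GGAA and GAAA with any 2 bases between them, in either direction, the composite element of ETS factors and interferon regulatory factors.
Cd5: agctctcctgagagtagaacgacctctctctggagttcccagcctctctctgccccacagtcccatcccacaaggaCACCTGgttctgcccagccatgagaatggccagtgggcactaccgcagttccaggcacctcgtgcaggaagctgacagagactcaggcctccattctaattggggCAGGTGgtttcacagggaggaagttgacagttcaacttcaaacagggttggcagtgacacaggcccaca
Cd8a: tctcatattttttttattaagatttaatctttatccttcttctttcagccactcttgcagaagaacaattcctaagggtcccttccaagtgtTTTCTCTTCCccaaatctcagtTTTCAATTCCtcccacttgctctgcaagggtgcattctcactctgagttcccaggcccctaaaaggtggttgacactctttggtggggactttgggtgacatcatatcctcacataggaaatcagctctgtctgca
The Cd5 window held 2 matches to the Zeb-type E-box, starting 174 and 69 bases before the start, and these were also its 2 matches to the wider E-box letters CANNTG. The Zeb-type E-box occurred in 17.2% of 32851 RefSeq promoter windows of this length and at least 2 matches in 2.06%. Neither the Cd8a window nor the Cd72 window, the third that matched, held it. The Cd8a window held 2 matches to the composite element, 158 and 136 bases before the start, against at least 1 match in 2.3% and at least 2 in 0.06% of all windows. The Cd5 and Cd72 windows held none, and the AP-1 element (6.7% of all windows) was in none of the 3. The matches are descriptions of the letters, read on both strands.

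Signals are log2 values of the probe set intensity from robust multi-array average (RMA), which gives no detection call. A signal is called near the floor here where it lies about the 40th percentile of its array, which was between 4.31 and 4.62. Across the 8 arrays the median log2 signal lay between 4.91 and 5.14. Pre-CD8 DC array 1 and Zeb2low array 2 stood apart by genes of mature neutrophils: the signal of Ly6g, a neutrophil surface marker, was 10.80 on pre-CD8 DC array 1 and 6.68 on array 2, 6.25, 10.15 and 8.19 on Zeb2low arrays 1 to 3, and 5.77, 7.06 and 4.19 on Zeb2hi arrays 1 to 3. The summed intensity of 10 neutrophil genes ranged from 29202.3 to 53013.5 in pre-CD8 DCs, from 23056.4 to 46244.6 in Zeb2low CDPs and from 10871.5 to 20601.0 in Zeb2hi CDPs, and its part in the results was not tested except where values without these arrays are given. Zeb2 itself averaged 6.73 ± 0.28 in pre-CD8 DCs (SD, n = 2), 7.68 ± 0.18 in Zeb2low CDPs and 9.27 ± 0.20 in Zeb2hi CDPs (SD, n = 3 each). The cDC1 markers Clec9a and Xcr1 were highest in pre-CD8 DCs, with Clec9a at 10.00 and 9.77 on those arrays, 7.55 to 8.46 in Zeb2low CDPs and 7.34 to 8.36 in Zeb2hi CDPs. Of 12 cDC1 marker genes 11 were tested. Over Zeb2hi CDPs 9 rose in pre-CD8 DCs (median 2.09) and 7 in Zeb2low CDPs (median 0.94) and 0 fell. Of all genes, 17.6% and 14.8% were called either way. This direction, that of Thy1 and Cd7, was not particular to the cDC1 list. Of the 10 neutrophil genes 5 rose in pre-CD8 DCs (median 2.00) and 4 in Zeb2low CDPs (median 1.60), and 0 fell. Of 10 plasmacytoid DC markers 2 rose and 2 fell in pre-CD8 DCs, and 4 rose and 1 fell in Zeb2low CDPs. The cDC1 markers that rose in Zeb2low CDPs included Id2 (4.35) and Batf3 (1.57), factors of cDC1 development. Clec9a (0.16) and Xcr1 (0.22) did not pass (limma adjusted p = 0.726 and 0.788). Xcr1 lay above the 40th percentile on none of the CDP arrays, so its comparison between CDPs is one of signals near the floor. Tlr3 lay above it on none of the Zeb2hi arrays. Both were tested only through the groups where they are higher, which limits the counts of this list. Pre-CD8 DCs rose over Zeb2low CDPs in 2 of the 11 (median 0.93). The summed intensity of the 12 genes ranged from 10773.4 to 11377.9 in pre-CD8 DCs, from 6802.6 to 7163.7 in Zeb2low CDPs and from 3774.3 to 4157.0 in Zeb2hi CDPs, and its part in the signals of the 8 genes was not tested.

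Thy1 and Cd7 had much higher signals in pre-CD8 DCs and Zeb2low CDPs than in Zeb2hi CDPs, Cd5 and Cd2 followed with smaller differences, and Cd79b was lower. Cd8a was highest on 1 pre-CD8 DC array, Cd4 stayed near the floor, and Cd72 differed more within groups than between them.

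**Figure D1:**
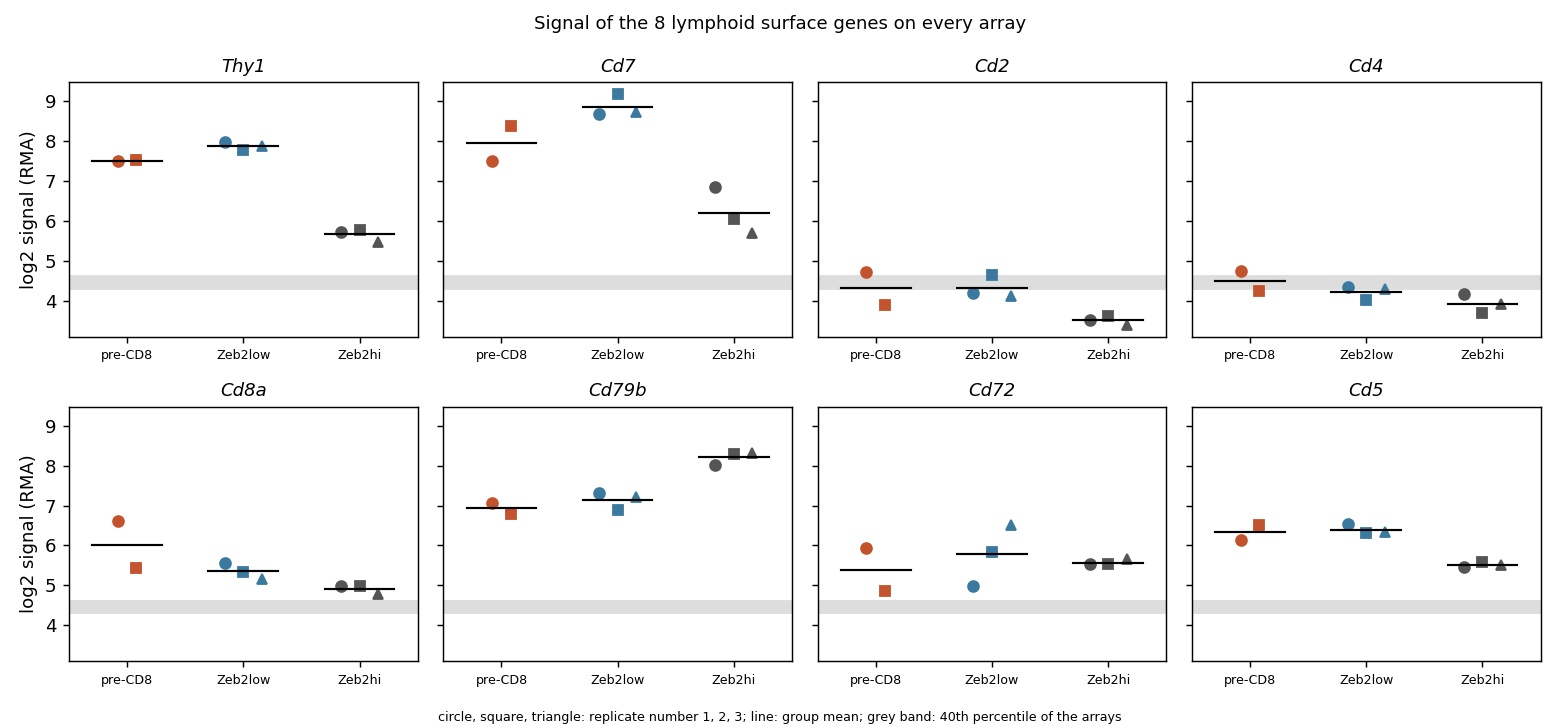
Log2 RMA signal of each of the 8 genes (vertical axis) on the 2 pre-CD8 DC, 3 Zeb2low CDP and 3 Zeb2hi CDP arrays, with group means as lines and the 40th percentile of the arrays as a grey band. Thy1 and Cd7 sit between 7.49 and 9.18 on all 5 pre-CD8 DC and Zeb2low arrays and between 5.48 and 6.86 in Zeb2hi CDPs; panels compare groups for 1 gene, since levels of different probe sets are not comparable.

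Thy1 had signals of 7.49 and 7.53 on the pre-CD8 DC arrays, 7.99, 7.78 and 7.89 on the Zeb2low arrays and 5.74, 5.78 and 5.48 on the Zeb2hi arrays. No groups overlapped, and the order was Zeb2low CDPs, then pre-CD8 DCs close below, then Zeb2hi CDPs far below. Over all genes tested the arrays were separate between pre-CD8 DCs and Zeb2low CDPs for 27.7% (12.4% above, 15.4% below), between Zeb2low and Zeb2hi CDPs for 41.8% (20.2% above, 21.5% below) and between pre-CD8 DCs and Zeb2hi CDPs for 48.4% (21.4% above, 27.1% below). The log2 difference between Zeb2low and Zeb2hi CDPs was 2.22 ± 0.14 (SE of the fit over all arrays), a 4.66-fold higher signal. Pre-CD8 DCs stood 1.85 ± 0.16 above Zeb2hi CDPs (3.60-fold) and -0.37 ± 0.16 from Zeb2low CDPs. Within Zeb2low CDPs the SD of Thy1 (n = 3) was 0.10 on the log2 scale. With pre-CD8 DC array 1 and Zeb2low array 2 both left out, an alternative added after seeing the data, the difference between Zeb2low and Zeb2hi CDPs was 2.27. By rank among all probe sets of an array, Thy1 lay at percentiles 81.9 and 83.1 in pre-CD8 DCs, 85.5 to 88.3 in Zeb2low CDPs and 57.5 to 61.0 in Zeb2hi CDPs.

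Cd7, whose product is among the earliest surface markers of the human T lineage, had signals of 7.51 and 8.39 in pre-CD8 DCs, 8.69, 9.18 and 8.72 in Zeb2low CDPs and 6.86, 6.05 and 5.71 in Zeb2hi CDPs. All groups were again separate in the order Zeb2low CDPs, pre-CD8 DCs, Zeb2hi CDPs, but the pre-CD8 DC arrays lay far from each other. The log2 difference was 2.66 ± 0.33 between Zeb2low and Zeb2hi CDPs (6.31-fold) and 1.74 ± 0.37 between pre-CD8 DCs and Zeb2hi CDPs (3.35-fold). Between pre-CD8 DCs and Zeb2low CDPs it was -0.91 ± 0.37, which became -0.31 with pre-CD8 DC array 1 and Zeb2low array 2 both left out, -1.35 without pre-CD8 DC array 2 and -0.47 without pre-CD8 DC array 1. The size of this gap therefore rested on which of the pre-CD8 DC arrays was used, and its sign was the same in each of these fits.

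Cd5, a scavenger-type receptor that dampens antigen receptor signals, had signals of 6.14 and 6.52 in pre-CD8 DCs, 6.54, 6.30 and 6.34 in Zeb2low CDPs and 5.45, 5.59 and 5.52 in Zeb2hi CDPs. Every pre-CD8 DC and Zeb2low array lay above every Zeb2hi array, while pre-CD8 DCs and Zeb2low CDPs overlapped. The differences over Zeb2hi CDPs were 0.81 ± 0.17 in pre-CD8 DCs (1.75-fold) and 0.87 ± 0.15 in Zeb2low CDPs (1.83-fold), and pre-CD8 DCs differed from Zeb2low CDPs by -0.06 ± 0.17. Cd5 is the gene whose promoter window holds both Zeb-type E-box matches shown above. No window was available for Thy1, Cd7, Cd2, Cd4 or Cd79b, and a part of these matches in the Cd5 signal was not tested.

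Cd2, an adhesion receptor that binds CD48 in mice, lay near the floor, with signals of 4.73 and 3.90 in pre-CD8 DCs, 4.20, 4.64 and 4.12 in Zeb2low CDPs and 3.53, 3.62 and 3.40 in Zeb2hi CDPs. All 5 arrays of the first groups lay above the 3 Zeb2hi arrays, and only pre-CD8 DC array 1 and Zeb2low array 2 lay above the 40th percentile of their array. Those are also the arrays with the highest Ly6g signal. Cd2 differed from Zeb2hi CDPs by 0.80 ± 0.26 in pre-CD8 DCs and 0.81 ± 0.23 in Zeb2low CDPs, and by 0.39 and 0.65 with both of those arrays left out. The genes whose signals followed Cd2 most closely over the 8 arrays were Scrg1 (Pearson's r = 0.985), A530064D06Rik (r = 0.984) and Il1r2 (r = 0.983), the last a decoy receptor for interleukin 1 that neutrophils carry. Scrg1 was at 8.71 and 5.82 in pre-CD8 DCs, 7.15, 9.02 and 6.75 in Zeb2low CDPs and 3.96, 5.23 and 3.27 in Zeb2hi CDPs. The part of neutrophil RNA in the Cd2 signal was not tested beyond the fit without those arrays.

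Cd8a encodes the chain that as a homodimer gives the CD8a+ DC its name. Its signals were 6.61 and 5.43 in pre-CD8 DCs, 5.57, 5.32 and 5.16 in Zeb2low CDPs and 4.99, 4.99 and 4.79 in Zeb2hi CDPs. Pre-CD8 DC array 1 stood alone above the rest, array 2 lay within the range of the Zeb2low arrays, and the Zeb2hi arrays were the lowest. The differences were 0.67 ± 0.31 between pre-CD8 DCs and Zeb2low CDPs, 0.43 ± 0.27 between Zeb2low and Zeb2hi CDPs and 1.10 ± 0.31 between pre-CD8 DCs and Zeb2hi CDPs (2.14-fold). Without pre-CD8 DC array 1 the first was 0.09 and the third 0.51, and without pre-CD8 DC array 2 they were 1.26 and 1.69. Cadm1, an adhesion molecule of cDC1s, followed Cd8a with r = 0.977 over the 8 arrays, beside the annexin gene Anxa2 (r = 0.978) and the chemokine gene Cxcl9 (r = 0.977). Cadm1 was at 6.73 and 4.91 in pre-CD8 DCs, 4.99, 4.75 and 4.92 in Zeb2low CDPs and 4.56, 4.42 and 4.28 in Zeb2hi CDPs. The cDC1 chemokine receptor gene Xcr1 was likewise higher on pre-CD8 DC array 1 (7.57) than on array 2 (5.03), against 3.49 to 4.09 in Zeb2low CDPs and 3.52 to 3.61 in Zeb2hi CDPs. Other cDC1 markers did not share this gap: on pre-CD8 DC arrays 1 and 2 Tlr3 had signals of 9.19 and 9.31, Batf3 8.18 and 8.94, Id2 10.18 and 10.80, and Clec9a 10.00 and 9.77. Pre-CD8 DC array 1 is also the array with the highest Ly6g signal. Some lymphocyte genes were higher on it than on array 2, such as Cd3d (6.06 and 4.86) and Il2rb (6.62 and 5.14). Others were lower, such as Cd22 (7.25 and 8.27). The part of neutrophil or lymphocyte RNA in the Cd8a signal was not tested beyond the fit without array 1. In bulk samples such as these, fewer cells of a type and less RNA per cell cannot be told apart. Cd8b1, which encodes the other chain of the T cell form of CD8, had signals of 4.97 and 4.72 in pre-CD8 DCs, 4.66, 5.16 and 4.39 in Zeb2low CDPs and 4.35, 4.48 and 4.25 in Zeb2hi CDPs, and none of its differences passed the test (limma adjusted p = 0.869 between pre-CD8 DCs and Zeb2low CDPs, 0.231 between Zeb2low and Zeb2hi CDPs, 0.189 between pre-CD8 DCs and Zeb2hi CDPs).

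Cd4 had signals of 4.76 and 4.25 in pre-CD8 DCs, 4.35, 4.01 and 4.30 in Zeb2low CDPs and 4.18, 3.69 and 3.92 in Zeb2hi CDPs. Pre-CD8 DC array 1 alone lay above the 40th percentile of its array, so Cd4 was left out of the fit over genes and its signal is not proof of expression. Pre-CD8 DCs lay above Zeb2hi CDPs on both arrays, and the other groups overlapped. From a fit without the filter the differences were 0.29 ± 0.21 between pre-CD8 DCs and Zeb2low CDPs, 0.29 ± 0.19 between Zeb2low and Zeb2hi CDPs and 0.57 ± 0.21 between pre-CD8 DCs and Zeb2hi CDPs. The gene most like Cd4 over the arrays was Gpr141, an orphan receptor gene (r = 0.974).

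Of the B cell receptor genes, Cd79b ran the opposite way to Thy1. It had signals of 7.07 and 6.79 in pre-CD8 DCs, 7.32, 6.89 and 7.22 in Zeb2low CDPs and 8.0, 8.30 and 8.32 in Zeb2hi CDPs. Every Zeb2hi array lay above every other array, while pre-CD8 DCs and Zeb2low CDPs overlapped. The log2 difference from Zeb2hi CDPs was -1.28 ± 0.19 in pre-CD8 DCs, a 2.43-fold lower signal, and -1.06 ± 0.17 in Zeb2low CDPs, 2.09-fold lower. Pre-CD8 DCs differed from Zeb2low CDPs by -0.22 ± 0.19. Dnaja3, which encodes a mitochondrial co-chaperone, followed Cd79b most closely of all genes tested (r = 0.996), with signals of 6.73 and 6.63 in pre-CD8 DCs, 6.71 to 6.98 in Zeb2low CDPs and 7.39 to 7.66 in Zeb2hi CDPs.

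Cd79a encodes the chain with which the Cd79b product pairs in B cells, and its signals went the other way. They were 4.92 and 4.37 in pre-CD8 DCs, 4.23, 4.71 and 4.68 in Zeb2low CDPs and 3.79, 3.32 and 3.62 in Zeb2hi CDPs. Cd79a was above the 40th percentile on 3 of the 8 arrays and on none of the Zeb2hi arrays, so it passed the filter only through the groups where it is higher and the size of its difference is uncertain. It rose over Zeb2hi CDPs in pre-CD8 DCs (1.07 ± 0.24, limma adjusted p = 0.0166) and in Zeb2low CDPs (0.96 ± 0.21, limma adjusted p = 0.0204). For pre-CD8 DCs the adjusted p was 0.104 with pre-CD8 DC array 1 left out, 0.0622 with Zeb2hi array 2 and 0.0506 with Zeb2hi array 3 left out, each past 0.05. For Zeb2low CDPs it was 0.0886 and 0.0715 with Zeb2hi array 2 or 3 left out, 0.0649 and 0.0665 with Zeb2low array 2 or 3 left out, and 0.0676 after quantile normalization. In the fit with no filter it was 0.019 for pre-CD8 DCs and 0.0227 for Zeb2low CDPs.

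Cd72, a lectin-like receptor that binds semaphorin 4D, had signals of 5.93 and 4.86 in pre-CD8 DCs, 5.00, 5.83 and 6.50 in Zeb2low CDPs and 5.54, 5.53 and 5.65 in Zeb2hi CDPs. The groups overlapped in every comparison, and the SD was 0.76 in pre-CD8 DCs (n = 2) and 0.75 in Zeb2low CDPs (n = 3), against 0.07 in Zeb2hi CDPs (n = 3). The differences were -0.38 ± 0.43 between pre-CD8 DCs and Zeb2low CDPs, 0.20 ± 0.38 between Zeb2low and Zeb2hi CDPs and -0.18 ± 0.43 between pre-CD8 DCs and Zeb2hi CDPs. Each changed sign without 1 array or another: the ranges over the fits without 1 array were -0.92 to 0.15, -0.16 to 0.59 and -0.71 to 0.36, in that order. Sema4d, the gene of that ligand, had signals of 8.93 and 8.06 in pre-CD8 DCs, 7.68 to 8.33 in Zeb2low CDPs and 7.73 to 8.02 in Zeb2hi CDPs. The closest gene to Cd72 over the arrays was Pikfyve, a lipid kinase gene (r = 0.943).

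**Figure D2:**
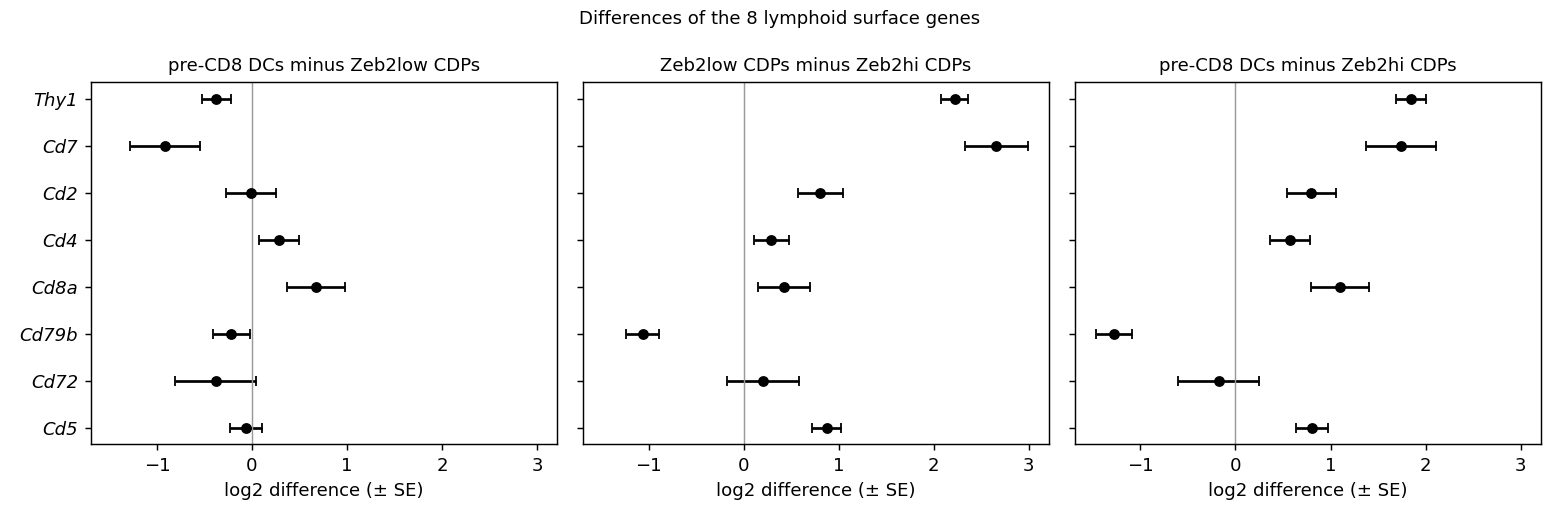
Log2 difference of each of the 8 genes (horizontal axis, bars are standard errors of the fit over 8 arrays) for pre-CD8 DCs minus Zeb2low CDPs, Zeb2low minus Zeb2hi CDPs and pre-CD8 DCs minus Zeb2hi CDPs. Against Zeb2hi CDPs, Thy1 and Cd7 lie between 1.74 and 2.66 and Cd79b at -1.28 and -1.06, while in the comparison of pre-CD8 DCs with Zeb2low CDPs the 8 points run from -0.91 to 0.67.

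Across the 8 arrays the signals of Thy1, Cd7 and Cd5 followed each other, with Pearson's r of 0.94 for Thy1 and Cd7, 0.96 for Thy1 and Cd5 and 0.90 for Cd7 and Cd5. Cd79b ran against them, with r of -0.92, -0.90 and -0.90 to Thy1, Cd7 and Cd5. Cd8a and Cd4 followed each other (r = 0.85), and Cd72 followed none of them (r between -0.15 and 0.26). These are descriptions of 8 points that share 3 group means, and of genes chosen for their pattern. The gene closest to Thy1 was Tnfrsf13c, the receptor for the B cell survival factor BAFF (r = 0.988), followed by Inpp4b (r = 0.982) and Cd63 (r = 0.980). Those closest to Cd7 were Egfl8 (r = 0.989), Mdfic (r = 0.987) and Ube2d3 (r = 0.985), and those closest to Cd5 were Inpp4b (r = 0.991), Zic5 (r = 0.987) and Pmel (r = 0.982).

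Of the 8 genes, 7 passed the filter on low signal. Between Zeb2low and Zeb2hi CDPs the median difference of all 8 was 0.62, against 0.03 over all genes tested. Limma called 14.8% of the 13356 genes tested there (4.5% higher, 10.3% lower). Between pre-CD8 DCs and Zeb2hi CDPs the medians were 0.80 for the 8 and -0.02 for all genes. There 17.6% of all genes were called (6.51% higher, 11.1% lower). Between pre-CD8 DCs and Zeb2low CDPs the medians were -0.14 for the 8 and -0.03 for all genes. There 0.554% of all genes were called (0.337% higher, 0.217% lower). Since the 8 were chosen on these comparisons, no calls are given for them and nothing is read from their medians. The split over all genes moved with the scaling: higher genes made up 30.4% of the calls between Zeb2low and Zeb2hi CDPs, 42.3% after quantile normalization and 16.4% after median centring, which takes off a shift of the array medians of 0.14 between these groups. They made up 60.8% of the calls between pre-CD8 DCs and Zeb2low CDPs, and 71.8% after median centring. The comparisons share arrays: the Zeb2hi arrays stand in 2 of them, as do the Zeb2low and the pre-CD8 DC arrays.

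Genes of lymphocytes other than the 8 were counted from lists of textbook markers. Together the T cell, B cell and NK and innate lymphoid lists held 75 genes, of which 69 were named on the array and 45 passed the filter. In Zeb2low CDPs 12 of these 45 rose over Zeb2hi CDPs and 0 fell, a share of 26.7% against 14.8% of all genes, with a median difference of 0.53. With a replicate block over the 6 CDP arrays the 12 became 26, of which 92.3% were higher, and the calls over all genes 4070 in place of 1978. The 12 became 4 without Zeb2hi array 2 or 3, 6 without Zeb2low array 2 and 7 without Zeb2low array 3. In pre-CD8 DCs 13 rose over Zeb2hi CDPs and 2 fell, 33.3% against 17.6% of all genes, with a median of 0.43. These 15 calls became 7 without pre-CD8 DC array 1, Zeb2hi array 2 or Zeb2hi array 3. Of the 45, Sit1, Tox, Cd79a, Bank1, Fcmr, Eomes and Il2rb lay above the 40th percentile on none of the Zeb2hi arrays. They passed the filter only through the groups where they are higher, and could hardly be called lower. Tox and Cd79a are among the calls of both comparisons and Il2rb among those in pre-CD8 DCs. Nothing is therefore read from the split into higher and lower. By list, the T cell genes gave 4 calls of 18 in pre-CD8 DCs (median 0.24) and 4 in Zeb2low CDPs (median 0.52) against Zeb2hi CDPs. The B cell genes gave 6 of 16 in pre-CD8 DCs (median 0.36) and 4 in Zeb2low CDPs (median 0.40). The NK and innate lymphoid genes gave 5 of 11 in pre-CD8 DCs (median 1.01) and 4 in Zeb2low CDPs (median 0.68). Of those 5, Ccl5, Il2rb and Il18r1 missed the threshold in the fit with no filter (limma adjusted p = 0.0615, 0.0547 and 0.0576). Without pre-CD8 DC array 1 their differences fell from 2.01, 1.90 and 1.01 to 1.28, 1.16 and 0.55. Klrk1, the activating receptor NKG2D, rose by 1.68 ± 0.29 in pre-CD8 DCs (limma adjusted p = 0.00673) and by 1.31 ± 0.26 in Zeb2low CDPs (limma adjusted p = 0.0155), the second missing the threshold once Zeb2hi array 2 or 3 was left out (adjusted p = 0.0671 and 0.0664). Between pre-CD8 DCs and Zeb2low CDPs limma called 0 of the 45 (8 at an unadjusted p under 0.05), with a median of -0.06.

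The genes taken here as defining lymphocytes were mostly near the floor. Of 12 such genes 11 were on the array, and 6 of these passed the filter. Above the 40th percentile 2 lay on all 8 arrays and 4 on none. Outside these 12, Dntt (5.68 to 8.33), Vpreb1 (5.13 to 8.59), Vpreb3 and Igll1 of the same lists lay above it on all 8 arrays. Rag1, of the 12, did so on 1 array, and Rag2 on none. Among the T cell receptor chains, Cd3e had signals of 5.89 and 5.87 in pre-CD8 DCs, 5.69 to 6.07 in Zeb2low CDPs and 5.20 to 5.37 in Zeb2hi CDPs. It rose over Zeb2hi CDPs in pre-CD8 DCs (0.59 ± 0.16, limma adjusted p = 0.0357) and in Zeb2low CDPs (0.59 ± 0.14, limma adjusted p = 0.0283), as Thy1 and Cd7 were higher there. Without 1 array, each call was lost in several fits, for pre-CD8 DCs on leaving out either of their arrays (adjusted p = 0.12 and 0.0941), any of the Zeb2hi arrays (0.0518, 0.119 and 0.0998) or Zeb2low array 3 (0.0588). For Zeb2low CDPs it was lost on leaving out Zeb2hi array 2 or 3 (adjusted p = 0.117 and 0.101) or Zeb2low array 2 or 3 (0.0949 and 0.0763), and after median centring (0.0563). With pre-CD8 DC array 1 and Zeb2low array 2 both left out the adjusted p was 0.121 for pre-CD8 DCs and 0.0899 for Zeb2low CDPs. Cd3d had 6.06 and 4.86 in pre-CD8 DCs, 4.64, 5.82 and 6.07 in Zeb2low CDPs and 4.14, 4.31 and 4.28 in Zeb2hi CDPs, so every array of the first groups lay above every Zeb2hi array. Its difference did not pass in pre-CD8 DCs (1.21 ± 0.45, limma adjusted p = 0.097) or in Zeb2low CDPs (1.27 ± 0.40, limma adjusted p = 0.0649), although the second passed with a replicate block over the 6 CDP arrays (adjusted p = 0.0102). Cd3g had 4.35 and 3.86 in pre-CD8 DCs, 3.61 to 4.10 in Zeb2low CDPs and 3.37 to 3.44 in Zeb2hi CDPs. The B cell gene Ms4a1 stayed between 3.67 and 3.86 on the pre-CD8 DC and Zeb2low arrays and between 2.96 and 3.41 in Zeb2hi CDPs, and Pax5, the B cell identity factor, passed in none of the comparisons (limma adjusted p = 0.854 between pre-CD8 DCs and Zeb2low CDPs, 0.231 between Zeb2low and Zeb2hi CDPs, 0.179 between pre-CD8 DCs and Zeb2hi CDPs). Of the NK and innate lymphoid list, Ncr1, Klrb1c, Klrc1, Klra8, Gzmb and Rora lay above the 40th percentile on none of the arrays. Klrd1, Klrk1, Tbx21, Prf1, Nkg7, Ccl5, Il18rap and Zbtb16 lay above it on all 8. Gzma did so only on pre-CD8 DC array 1 (6.15). The summed intensity of the 29 T cell genes ranged from 874.2 to 874.6 in pre-CD8 DCs, 976.7 to 1476.4 in Zeb2low CDPs and 1030.4 to 1082.0 in Zeb2hi CDPs. That of the 21 B cell genes ranged from 1547.5 to 1902.6, 1552.9 to 1659.9 and 1250.8 to 1308.3 in the same order of groups, and that of the 19 NK and innate lymphoid genes from 1277.7 to 1842.0, 1346.7 to 1619.6 and 696.5 to 835.7. The sum of the T cell genes weighs the brightest most. In CDPs these were Cd27 (means of 7.60 in Zeb2low and 8.27 in Zeb2hi CDPs) and Dntt (7.72 and 6.90). In pre-CD8 DCs Cd27 and Dntt averaged 6.02 and 5.83. Of the 18 tested T cell genes, 14 were higher there than in Zeb2hi CDPs, against 6480 of all 13356 genes tested. Limma called 3 of these 14. Sit1 and Tox, above the 40th percentile on none of the Zeb2hi arrays, could hardly be lower, so nothing is read from this count. The part of lymphocytes in the signals of the 8 genes was not tested.

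Several of these genes were higher than in Zeb2hi CDPs, as Thy1 and Cd7 were. Cd22, an inhibitory lectin of B cells, rose by 2.60 ± 0.30 in pre-CD8 DCs (limma adjusted p = 0.00124) and by 2.18 ± 0.27 in Zeb2low CDPs (limma adjusted p = 0.0029). Tnfrsf13c rose by 1.22 ± 0.16 in pre-CD8 DCs (limma adjusted p = 0.00209) and by 1.45 ± 0.14 in Zeb2low CDPs (limma adjusted p = 0.00112). In Zeb2low CDPs Tox, a factor of T cell and innate lymphoid development, rose by 1.14 ± 0.14 (limma adjusted p = 0.00264) and Il18r1, the receptor for interleukin 18, by 1.76 ± 0.26 (limma adjusted p = 0.00552). Tox lay above the 40th percentile on none of the Zeb2hi arrays and Il18r1 on 1, so the sizes of these differences are uncertain. With no filter on signal their adjusted p was 0.00213 for Tox and 0.00628 for Il18r1. The calls just given held in every alternative in which the gene was tested. Tox and Il18r1 were also called in pre-CD8 DCs over Zeb2hi CDPs (0.67 and 1.01, limma adjusted p = 0.0194 and 0.046). Those calls did not hold in every alternative. The 2 genes that fell, both in pre-CD8 DCs against Zeb2hi CDPs, were Cd27, a costimulatory receptor of T cells (-2.25 ± 0.33, limma adjusted p = 0.00316), and Ralgps2 (-0.80 ± 0.22, limma adjusted p = 0.0393). In Zeb2low CDPs the Cd27 difference of -0.67 did not pass (limma adjusted p = 0.153), but it did with a replicate block over the 6 CDP arrays (adjusted p = 0.0456). The Ralgps2 call was not stable, with an adjusted p of 0.223 without pre-CD8 DC array 1, 0.0517 and 0.0614 without Zeb2low array 2 or 3, and 0.0924, 0.083 and 0.0784 without Zeb2hi array 1, 2 or 3.

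**Figure D3:**
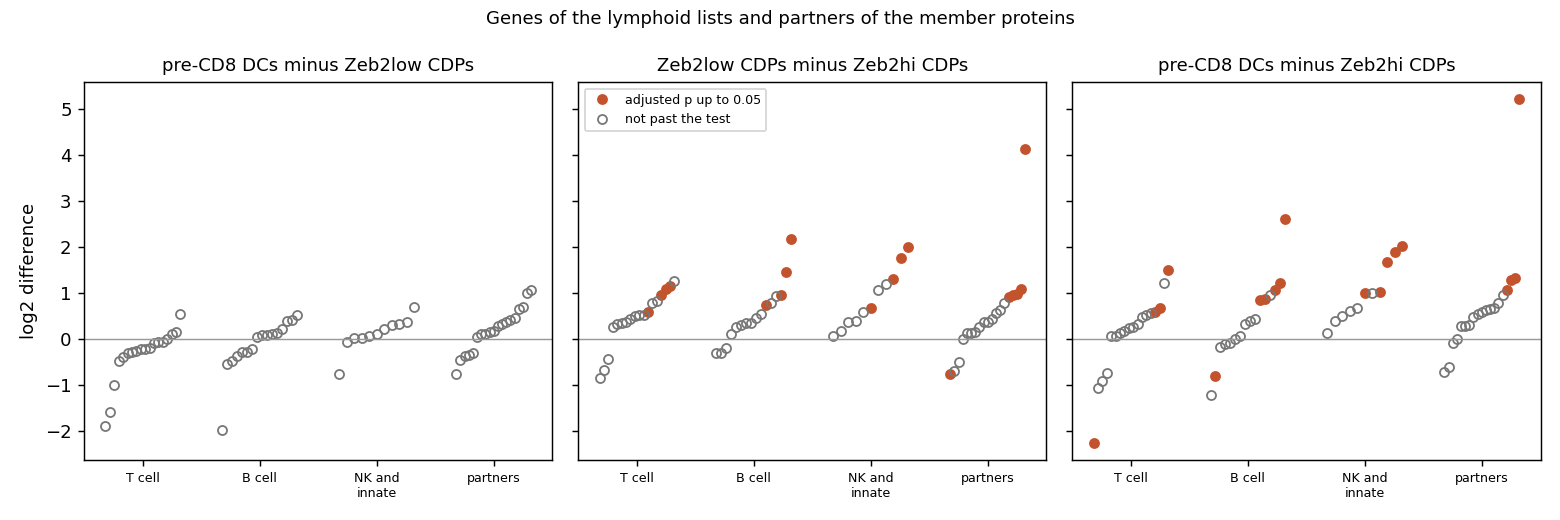
Log2 difference (vertical axis) of each tested gene of the T cell, B cell, NK and innate lymphoid lists and of the list of partners of the 8 proteins, ordered by size within a list, for the 3 comparisons; filled points passed limma's test at an adjusted p of 0.05. No gene is filled between pre-CD8 DCs and Zeb2low CDPs. The highest point of the partner list is Slamf7, a Cd2 relative, at 4.14 in Zeb2low CDPs and 5.21 in pre-CD8 DCs over Zeb2hi CDPs.

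Partners of the 8 proteins were listed broadly, 22 genes with 20 named on the array and 19 tested. The list held pairing chains, ligands, kinases, phosphatases and adaptors, and also receptors related to Cd2 or sharing a ligand with the 8. In Zeb2low CDPs 5 rose over Zeb2hi CDPs and 1 fell (31.6% against 14.8% of all genes, median 0.38). In pre-CD8 DCs 4 rose over Zeb2hi CDPs (21.1% against 17.6%, median 0.60). The related receptor Slamf7 rose in both and Cd244a in Zeb2low CDPs (limma adjusted p = 0.0311). The shares are therefore not those of direct partners alone. Cd79a was among those that rose in both, and lay above the 40th percentile on none of the Zeb2hi arrays. Between pre-CD8 DCs and Zeb2low CDPs limma called 0 (5 at an unadjusted p under 0.05, median 0.18). Cd48, the ligand of Cd2, had signals of 10.27 and 10.98 in pre-CD8 DCs, 11.26, 10.68 and 11.00 in Zeb2low CDPs and 10.13, 10.05 and 9.79 in Zeb2hi CDPs. It rose in Zeb2low CDPs (0.99 ± 0.23, limma adjusted p = 0.0231), but not with Zeb2low array 1 or 3 left out (adjusted p = 0.0563 and 0.0669), with Zeb2hi array 2 or 3 left out (adjusted p = 0.0786 and 0.0959), or with a replicate block over all arrays (adjusted p = 0.0545). Blocking on the replicate number in the 6 CDP arrays alone, whose numbers were taken to pair, left an adjusted p of 0.00531. In pre-CD8 DCs its difference of 0.63 ± 0.25 from Zeb2hi CDPs did not pass (limma adjusted p = 0.121). The gene that fell was Cd2bp2, whose product binds the tail of CD2 in T cells (-0.76 ± 0.20 in Zeb2low CDPs, limma adjusted p = 0.0344). It missed the threshold without Zeb2low array 1 or 3 (adjusted p = 0.0812 and 0.0982) and without Zeb2hi array 1, 2 or 3 (adjusted p = 0.0563, 0.137 and 0.0835). Slamf7, a receptor of the family to which Cd2 belongs, rose by 5.21 ± 0.31 in pre-CD8 DCs (limma adjusted p = 5.12e-05) and by 4.14 ± 0.28 in Zeb2low CDPs (limma adjusted p = 0.000203) over Zeb2hi CDPs, where its signals were 3.71 to 4.66 and above the 40th percentile on 1 of 3 arrays, so these sizes are uncertain.

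Fyn, a kinase of the Src family that works downstream of Thy1 and Cd2 in T cells, rose over Zeb2hi CDPs by 1.28 ± 0.21 in pre-CD8 DCs (limma adjusted p = 0.00483) and by 0.91 ± 0.19 in Zeb2low CDPs (limma adjusted p = 0.0158). With Zeb2hi array 2 left out the second missed the threshold (adjusted p = 0.0693). Ptprc, the phosphatase CD45, rose in pre-CD8 DCs (1.32 ± 0.25, limma adjusted p = 0.00938), which was lost without pre-CD8 DC array 1 (adjusted p = 0.0622). Ptpn6, the phosphatase that docks on Cd72, passed in none of the comparisons (limma adjusted p = 0.409 between pre-CD8 DCs and Zeb2low CDPs, 0.0926 between Zeb2low and Zeb2hi CDPs, 0.82 between pre-CD8 DCs and Zeb2hi CDPs). Sectm1b, a mouse relative of the human gene for a CD7 ligand, was near the floor, with signals of 3.98 and 4.24 in pre-CD8 DCs, 3.99 to 4.71 in Zeb2low CDPs and 3.97 to 4.28 in Zeb2hi CDPs.

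**Figure D4:**
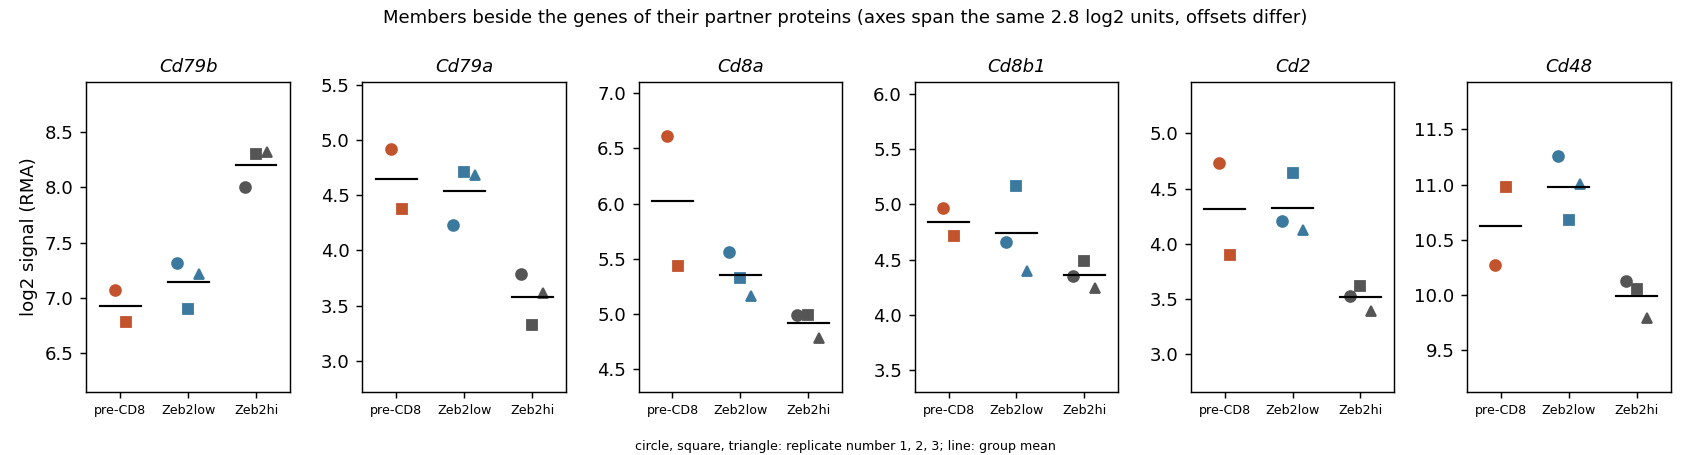
Log2 RMA signal (vertical axis, same span but another offset in each panel) of Cd79b, Cd8a and Cd2 beside the genes of their partner proteins Cd79a, Cd8b1 and Cd48 on every array, with group means as lines. Cd79b averaged 6.93 in pre-CD8 DCs, 7.14 in Zeb2low CDPs and 8.21 in Zeb2hi CDPs, whereas Cd79a was lowest in Zeb2hi CDPs; Cd8a but not Cd8b1 had 1 pre-CD8 DC array far above all others.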

How the data were processed

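The authors deposited linear intensities per probe set; the submitters' processing notes name robust multi-array average and Affymetrix Expression Console, without versions. The deposited table holds 28853 probe sets on 8 arrays, of which the platform annotation assigns 21789 to exactly 1 gene, 1621 to several and 5443 to none; only the first kind was used. Intensities were log2 transformed. A gene, taken as its brightest probe set on average, was kept where 2 or more arrays exceeded their own 40th percentile (13356 genes). All 8 arrays entered 1 limma 3.58.1 fit in R 4.3.3 (lmFit and eBayes, two-sided, 5 residual degrees of freedom), with Benjamini-Hochberg adjustment over all genes at 0.05. Precision is limited by the number of arrays. The fit was also run on simulated arrays drawn independently of each other. Some of the real arrays share deviations, as given below, and that run does not cover this.

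The 8 genes, the lists and the promoter motifs were chosen with earlier results of these data known. Genes were named by 1 rule: the 8; from each list up to 3 per direction past the test and comparison, with 12 defining genes; the 3 genes closest to each of the 8; and Zeb2. Not all are printed. Other markers beside a result were named after their values were seen.

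Same-numbered Zeb2low and Zeb2hi arrays shared their deviations from the group mean (across genes, r = 0.478, 0.407 and 0.308), so the numbers were taken to pair them. The labels do not state this pairing, and the main fit does not use it. The numbers of pre-CD8 DCs did not pair (r = -0.401 and -0.587 with Zeb2low arrays of the same number). With 2 arrays, the deviations of pre-CD8 DCs mirror each other. The highest r between groups was 0.587, of pre-CD8 DC array 1 with Zeb2low array 2, the arrays that stood apart by neutrophil genes. Alternatives were no or a stricter filter (60th percentile), quantile normalization, median centring, array weights, the mean of a gene's probe sets, a replicate block, and leaving out each array.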

Additional observations from a re-analysis of the deposited data

How the results depend on the processing

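The differences of the 8 genes were recomputed under up to 17 alternatives, of which the joint omission of pre-CD8 DC array 1 and Zeb2low array 2 was added after seeing the data. Thy1, Cd7, Cd5, Cd2, Cd4, Cd8a and Cd79b kept their direction against Zeb2hi CDPs in all of them. The differences of Cd2 (-0.42 to 0.40) and Cd5 (-0.25 to 0.13) between pre-CD8 DCs and Zeb2low CDPs kept their sign in 12 of 16. Between pre-CD8 DCs and Zeb2low CDPs the median over the 8 was positive without pre-CD8 DC array 2 (0.039, against -0.14; the fits without 1 array ran from -0.355 to 0.039), and the Cd4 difference was -0.073 in the joint omission.

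The number of genes called between pre-CD8 DCs and Zeb2low CDPs, 74 in all, was 21 to 147 without 1 array, 15 with the replicate block over all arrays and 12 in the joint omission. Between Zeb2low and Zeb2hi CDPs the 1978 were 521 to 2224 without 1 array, 4467 with array weights and 4070 with the replicate block over the 6 CDP arrays, and higher genes made up 30.4% of them, 40.3% under the weights, 42.3% of 1611 after quantile normalization and 16.4% of 2528 after median centring. Between pre-CD8 DCs and Zeb2hi CDPs the 2352 were 1172 to 2775 without 1 array and 1195 in the joint omission. Of the lymphoid list genes called, the 12 between Zeb2low and Zeb2hi CDPs were 4 to 16 without 1 array, 7 under the stricter filter, and 26 with array weights and 26 with the replicate block over the 6 CDP arrays. The 15 between pre-CD8 DCs and Zeb2hi CDPs were 7 to 18 without 1 array, 9 under the stricter filter, 8 with the replicate block over all arrays and 7 in the joint omission. The 0 between pre-CD8 DCs and Zeb2low CDPs were 0 to 2 without 1 array, 1 after quantile normalization and 2 with array weights. The cause of these shifts was not tested. Signals near the floor, such as those of Cd2, Cd4 and Cd79a, limit what their differences show.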
